A study of Homo sapiens with 34 samples.

Results

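The glycolysis and hypoxia response genes described here are 39 human genes, taken by symbol from a table of read counts for 26336 genes. They comprise 3 glucose and lactate transporters, 15 glycolytic enzymes, 3 regulators of glycolytic flux, 4 genes of oxygen sensing and 14 hypoxia-inducible genes outside glycolysis. All 39 symbols were found in the table. RNA was sequenced from 4 prostate cell lines in 34 libraries that fall into 17 groups. RWPE is a non-tumorigenic prostate epithelial line, LNCaP came from a lymph node metastasis and stands for early adenocarcinoma in the series, and VCaP and MDAPCa2a came from bone metastases. Cells grew on tissue culture plastic or on a coating of amorphous calcium phosphate (ACP), a mineral surface. RWPE had 2 libraries on plastic and 2 on ACP, both in its control medium, and 3 on ACP with androgen. LNCaP had 2 libraries each on plastic in control medium, on plastic in stripped serum, and on ACP in control medium, in stripped serum and with androgen. VCaP had the same 5 groups of 2, except plastic with stripped serum, which held 1 library and so has no replicate. MDAPCa2a had 2 libraries each on plastic in control medium, on plastic in stripped serum, on ACP in stripped serum and on ACP with androgen, and no group on ACP in control medium. Stripped serum was treated with charcoal and dextran, which depletes steroid hormones. Androgen was added to stripped medium at a labelled 100 mM, and the titles call it DHT while the treatment labels call it testosterone. Groups on ACP or in stripped serum are labelled day 4, and plastic control is labelled continuous culture. Each line had its own medium: RWPE a serum-free keratinocyte medium with epidermal growth factor and pituitary extract, LNCaP an RPMI medium with extra glucose, VCaP a DMEM and F12 mixture, and MDAPCa2a a serum-rich BRFF-HPC1 medium. MDAPCa2a also had a protein coating on plastic that was left out on ACP. Line, medium and origin therefore cannot be told apart, and the labels do not say that the libraries of a group came from separate cultures, so p-values measure only the spread between libraries.

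Glycolysis turns glucose into pyruvate in the cytosol. Transporters bring glucose into the cell, hexokinases trap it as glucose phosphate, phosphofructokinases commit it to breakdown, and lactate dehydrogenase turns pyruvate into lactate, which SLC16A3 exports. HIF1A and EPAS1 encode the alpha subunits of the hypoxia-inducible factors; with oxygen present, EGLN prolyl hydroxylases mark these proteins for degradation, so their control is mainly on the protein and not on the transcript. When stabilised, the factors bind DNA at hypoxia response elements and raise transcription of most glycolytic genes and of targets such as VEGFA and CA9. Normal prostate epithelium is known for secreting citrate, and androgen signalling is known to affect glucose use in prostate cancer cells.

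Promoter sequences are shown for 4 members whose transcripts carry the results below. CA9 moved most on the mineral surface in RWPE, ANKRD37 rose with androgen in LNCaP and VCaP, and in VCaP LDHA rose and MXI1 fell with it. Each is the 250 bases before the RefSeq start of the gene on GRCh38.p14, read 5′ to 3′ on the plus strand, and capitals mark ACGTG or GCGTG, the core letters of hypoxia response elements, on either strand, with overlapping matches run together.
CA9, chr9:35673678-35673927: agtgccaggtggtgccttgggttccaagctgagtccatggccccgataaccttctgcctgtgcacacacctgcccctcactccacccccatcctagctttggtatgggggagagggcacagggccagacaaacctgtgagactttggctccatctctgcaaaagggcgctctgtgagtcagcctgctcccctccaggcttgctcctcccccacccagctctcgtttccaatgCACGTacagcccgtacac
ANKRD37, chr4:185396591-185396840: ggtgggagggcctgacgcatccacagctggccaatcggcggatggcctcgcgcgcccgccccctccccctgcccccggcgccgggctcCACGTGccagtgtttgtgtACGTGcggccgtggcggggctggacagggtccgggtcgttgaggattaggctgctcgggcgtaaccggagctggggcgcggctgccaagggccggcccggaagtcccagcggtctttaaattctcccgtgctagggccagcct
LDHA, chr11:18394313-18394562: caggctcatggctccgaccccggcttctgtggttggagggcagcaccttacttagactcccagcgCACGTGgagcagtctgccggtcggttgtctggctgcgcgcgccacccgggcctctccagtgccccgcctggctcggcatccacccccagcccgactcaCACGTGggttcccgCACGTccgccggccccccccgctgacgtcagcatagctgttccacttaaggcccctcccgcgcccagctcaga
MXI1, chr10:110207355-110207604: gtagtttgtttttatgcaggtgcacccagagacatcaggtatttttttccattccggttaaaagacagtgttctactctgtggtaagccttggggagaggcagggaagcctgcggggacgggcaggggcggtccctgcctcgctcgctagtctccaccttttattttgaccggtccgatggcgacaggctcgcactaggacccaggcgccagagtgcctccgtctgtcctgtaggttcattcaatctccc
The marked stretch of CA9 begins 18 bases before the start. ANKRD37 holds 2 stretches, at 162 and 143 bases before the start, and LDHA holds 3, at 185, 87 and 73 bases. MXI1 holds none in this window.

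RefSeq promoters were found for 34 of the 39 members, and those of SLC2A3, VEGFA, BNIP3L, NDRG1 and HILPDA were not matched. ACGTG stood on either strand in 13 of the 34, or 38.2%, against 18.7% of 27305 promoters of the same length. ACGTG or GCGTG, the broader form of the core, stood in 22 of the 34, or 64.7%, against 43.1% of all promoters. The gap was smaller for GCGTG counted by itself, at 38.2% against 31.9%. It was also smaller for 2 or more stretches, at 20.6% against 16.3%. The promoters were not matched for GC content. Some matches lie in CACGTG, which is also an E-box, with 2 in LDHA and 1 in ANKRD37. A match of letters is a description of the window and not a bound site.

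Depth ran from 15.4 M to 44.8 M counts per library. KRT5 and ERG fitted the labelled lines. KRT5, a basal keratin, averaged 4013 CPM (read counts scaled to library size) or more in the RWPE groups. In the other groups KRT5 averaged 9.04 CPM or less. ERG averaged at least 138 CPM in VCaP groups and 1.88 CPM or less elsewhere. The luminal genes KLK3, KLK2 and TMPRSS2 averaged lower in every RWPE group than in any cancer group, but luminal KRT18 did not. On plastic with control medium, KRT18 averaged 823 CPM for RWPE, and LNCaP, VCaP and MDAPCa2a had 469, 313 and 479 CPM. All 8 plastic control libraries carried transcripts of other tissues. FGG, a fibrinogen gene of liver, averaged 1.89 to 2.63 CPM in the 4 plastic control groups and 0.02 CPM or less in the 13 others. CD74, a lymphoid gene, averaged 5.44 to 15.5 CPM in those 4 groups and 3.03 CPM or less elsewhere. A library batch and the group cannot be told apart in any comparison with plastic control inside a line. GAPDH has 62 named pseudogenes, BNIP3 39 and PGAM1 13, SLC2A3 has a near-identical copy in SLC2A14, and P4HA2 overlaps an antisense gene over 14.8% of its exons. Genes of the opposite strand also overlap PFKM over 8.6% of its exons, SLC16A3 over 6.5% (CSNK1D) and ENO1 over 5.2%. For SLC2A1, HIF1A and TPI1 it is 3.2% or less. Whether strand was used in counting is not given in the sources used here, so the levels of all these genes are uncertain. The part of CSNK1D reads in the low SLC16A3 levels of LNCaP and VCaP was not tested.

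All 4 lines used the same enzymes at the head of the list. Per kilobase of exon, GAPDH, the dehydrogenase in the middle of the pathway, was the most abundant member in each line, with a median over libraries from 878 CPM per kb in MDAPCa2a to 1916 CPM per kb in RWPE. ENO1, the enolase near its end, came next in every line, from 433 CPM per kb in MDAPCa2a to 630 CPM per kb in VCaP. In VCaP the third was NDRG1, a hypoxia- and androgen-inducible gene of cell stress and differentiation, with a median of 497 CPM per kb, whereas it was at 142 CPM per kb in RWPE. At the other end, CA9 was the lowest member in LNCaP and VCaP, and SLC2A3 the lowest in MDAPCa2a.

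Paralogs of a step were used in different shares. HK1 is the housekeeping hexokinase and HK2 the inducible one that many tumours raise. HK2 made up a median of 36.9% of the pair per kilobase in MDAPCa2a (range 32.1% to 52.3% over 8 libraries), against 13.6% in RWPE, 14.6% in LNCaP and 15.8% in VCaP. The highest HK2 share in any library of the other lines was 25%, so the libraries of MDAPCa2a did not overlap with them. Of the phosphofructokinases, PFKP, the platelet form, held a median of 35.5% in RWPE (34.3% to 37.7%) and 11.1% to 19.6% in the cancer lines, whose highest library was at 26.4%. PFKFB4, which like PFKFB3 sets the level of a phosphofructokinase activator, held 13.1% of that pair in RWPE and 38.2% to 56.0% in the cancer lines. Collagen prolyl hydroxylase P4HA2 held a median of 69.4% of its pair in RWPE, 47.4% in MDAPCa2a, 17.8% in LNCaP and 14.3% in VCaP.

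**Figure D1:**
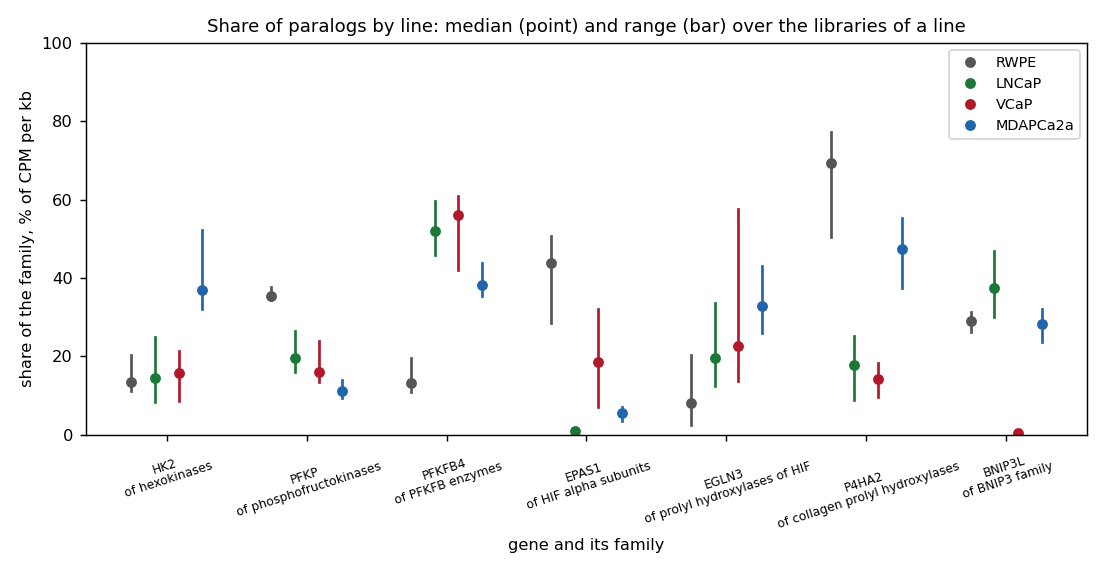
Share of 7 genes in their family of paralogs by line, in percent of the family's CPM per kilobase; points are medians and bars the range over the 7 RWPE, 10 LNCaP, 9 VCaP and 8 MDAPCa2a libraries. HK2 in MDAPCa2a and PFKP in RWPE lie above every library of the other lines, and BNIP3L is near 0 in VCaP.

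In control medium on plastic, the oxygen-sensing genes and several targets differed between RWPE and the cancer lines by far more than the replicates. EPAS1, the alpha subunit known from endothelium and kidney, was at 388 and 366 CPM in the RWPE plastic control libraries. It stood at 1.5 and 1.81 CPM in LNCaP, at 19.3 and 47.1 CPM in VCaP and at 14.1 and 12.7 CPM in MDAPCa2a on the same surface and in control medium. All 7 RWPE libraries lay above all 27 others, with RWPE on ACP with androgen the lowest of its groups at 126, 160 and 228 CPM. The log2 difference on plastic was -7.83 ± 0.52 in LNCaP (SE, adjusted p = 4.56e-12, edgeR), -3.51 ± 0.41 in VCaP (adjusted p = 7.95e-08) and -4.81 ± 0.44 in MDAPCa2a (adjusted p = 1.3e-09). HIF1A differed less: it was at 312 and 299 CPM in RWPE, 155 and 164 CPM in LNCaP, 143 and 141 CPM in VCaP and 207 and 175 CPM in MDAPCa2a, and was lower in each cancer line by 0.68 to 1.11 on the log2 scale. EGLN3, a hydroxylase that is itself a hypoxia-inducible target, went the other way. It was at 0.56 and 0.58 CPM in RWPE, 10.9 and 11.1 CPM in LNCaP, 4.43 and 4.67 CPM in VCaP and 30.2 and 29.9 CPM in MDAPCa2a. Its log2 difference from RWPE was 4.26 ± 0.83 in LNCaP (adjusted p = 9.98e-05, edgeR), 2.99 ± 0.82 in VCaP (adjusted p = 0.00289) and 5.71 ± 0.86 in MDAPCa2a (adjusted p = 3.4e-06). In RWPE on ACP, EGLN3 was at 3.71 and 3.31 CPM in control medium. With androgen there it was at 2.07, 7.99 and 0.77 CPM, so its replicates lay far apart.

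Of the transporters, SLC2A1 was highest in RWPE, SLC16A3 was high in RWPE and MDAPCa2a, and SLC2A3 reached its highest level in VCaP on ACP with androgen. SLC2A1, the basal glucose transporter, was at 345 and 325 CPM in RWPE on plastic, at 78.9 and 66.1 CPM in LNCaP, at 81.8 and 92.9 CPM in VCaP and at 133 and 153 CPM in MDAPCa2a. No cancer library reached the lowest RWPE library, which was at 186 CPM on ACP with androgen. SLC16A3, the lactate exporter, was at 380 and 425 CPM in RWPE and 199 and 223 CPM in MDAPCa2a, but at 4.39 and 4.61 CPM in LNCaP and 5.95 and 6.48 CPM in VCaP. This is 89.4-fold lower in LNCaP and 64.7-fold lower in VCaP than in RWPE (adjusted p = 2.8e-08 and 5.54e-08, edgeR). In MDAPCa2a SLC16A3 did not pass the test. SLC2A3, the high-affinity glucose transporter, was at 13.9 and 12.9 CPM in RWPE and at 0.14 CPM or less in all 8 MDAPCa2a libraries, where 3 reads were found on ACP with androgen against 294 in RWPE, a 66.2-fold ratio with an exact 95% interval of 22.4 to 323.

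Of the other targets, CA9, a carbonic anhydrase of the cell surface that is widely used as a hypoxia marker, was at 0.254 CPM or less in every library outside RWPE. On ACP with androgen RWPE had 1022 CA9 reads, LNCaP 0, VCaP 1 and MDAPCa2a 2. The level was at least 368-fold lower in LNCaP, 851-fold lower in VCaP (152 to 33600) and 345-fold lower in MDAPCa2a (95.3 to 2850), with bounds that cover counting error only. Whether the few CA9 reads of the cancer lines were carried over from RWPE libraries was not tested. CA12, its paralog, was higher in all 3 cancer lines, most in VCaP, where it was at 61.4 and 164 CPM on plastic against 5.17 and 8.37 CPM in RWPE (log2 difference 4.06 ± 0.39, adjusted p = 3.19e-09, edgeR). NDRG1 was at 3425 and 2202 CPM in VCaP, 533 and 539 CPM in RWPE, 154 and 169 CPM in LNCaP and 199 and 209 CPM in MDAPCa2a. All 9 VCaP libraries, from 1398 to 4341 CPM, lay above every other library. BNIP3L, a mitophagy receptor, was close to absent in VCaP, at 0.34 to 1.13 CPM in 9 libraries, and at 37.3 CPM or more in the libraries of the other lines. Its log2 difference from RWPE was -5.87 ± 0.32 on plastic (adjusted p = 1.29e-13, edgeR). BNIP3, the paralog with the same role, was at 115 and 95.9 CPM in VCaP and 71.5 and 66.0 CPM in RWPE. VEGFA, the angiogenic growth factor, was highest in MDAPCa2a at 477 and 453 CPM and lowest in VCaP at 27.1 and 28.2 CPM, with RWPE at 197 and 157 CPM. ADM, which encodes the vasodilator adrenomedullin, was at 18.3 and 25.9 CPM in RWPE and 0.93 and 0.84 CPM in LNCaP.

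Counted over the whole list in control medium on plastic, 31 of 39 members passed an adjusted p of 0.05 in LNCaP against RWPE (16 higher, 15 lower), where 57.4% of all 17323 genes passed (29.5% higher, 27.9% lower). In VCaP 29 passed (10 higher, 19 lower, against 62.4% of all genes, 32.1% higher and 30.3% lower), and in MDAPCa2a 26 passed (13 higher, 13 lower, against 56.7%, 28.3% higher and 28.4% lower). On ACP with androgen the counts were 24 in LNCaP (13 higher, 11 lower, background 66.9%, 32.2% higher and 34.8% lower), 26 in VCaP (13 and 13, background 67.4%, 32.8% and 34.6%) and 26 in MDAPCa2a (12 and 14, background 64%, 29.9% and 34.2%). The share of members passed that of all genes most in LNCaP and VCaP on plastic, and on ACP with androgen it was near it in each line. SLC2A3 in VCaP was lower than in RWPE on plastic (log2 difference -1.45 ± 0.37, adjusted p = 0.00154, edgeR) and higher on ACP with androgen (2.46 ± 0.33, adjusted p = 8.06e-07). Medians were 0.37, -0.43 and -0.02 on the log2 scale for LNCaP, VCaP and MDAPCa2a on plastic, against 0.01, 0.04 and 0.00 over all genes. The enzymes did not move one way: 6 were higher and 4 lower in LNCaP on plastic, 4 and 7 in VCaP, and 4 and 4 in MDAPCa2a. Of the early steps, PFKM, PFKL and GPI were higher in each cancer line under both conditions, but HK1, HK2 and PFKP were not. On plastic HK1 and HK2 were lower in LNCaP (log2 difference -1.28 and -0.83). That HK2 call was lost without RWPE replicate 1 or either LNCaP replicate. HK2 was at 387 and 363 CPM in MDAPCa2a on plastic against 128 and 112 CPM in RWPE. PFKP there was at 167 and 171 CPM in RWPE, 170 and 183 CPM in LNCaP, 93.6 and 124 CPM in VCaP and 65.5 and 74.2 CPM in MDAPCa2a. HIF1A passed as lower in 5 of the 6 comparisons, MDAPCa2a on ACP with androgen being the exception. The PFKL calls on plastic were lost without either RWPE library, and without replicate 2 of the cancer line, in both LNCaP (log2 difference 0.62 to 0.73 with 1 library left out) and VCaP (0.40 to 0.83), and on ACP with androgen the VCaP call was lost without VCaP replicate 1 (0.32). The HIF1A call in VCaP on ACP with androgen was lost with the replicate block, without RWPE replicate 3 and without VCaP replicate 2, and that in MDAPCa2a on plastic without MDAPCa2a replicate 2. Calls that held without any single library numbered 24 of 31, 23 of 29 and 20 of 26 on plastic.

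**Figure D2:**
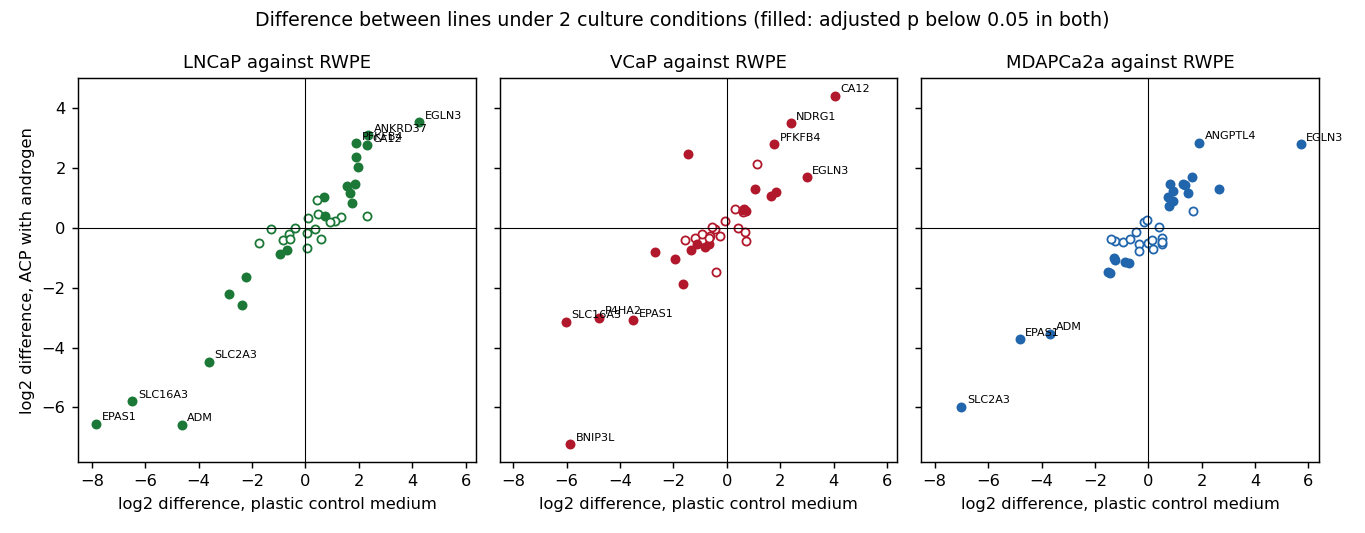
Log2 difference of each cancer line from RWPE for 38 members, in control medium on plastic (horizontal axis) and on ACP with androgen (vertical axis); filled points passed an adjusted p of 0.05 in both. CA9 is left out because 2 reads or fewer per cancer line on ACP with androgen give no fitted difference that can be read. EPAS1 is low and EGLN3 high in each panel, and BNIP3L is far below RWPE in VCaP.

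Androgen on ACP raised part of the list in VCaP. Of 38 members tested, 14 rose and 1 fell, against 17.5% of all 15614 genes called in either direction (8.67% rose, 8.8% fell). The median log2 change was 0.58 over the members and -0.03 over all genes. In a bulk library, a change in how many cells express a gene and a change of RNA per cell cannot be told apart.

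SLC2A3 moved most. It was at 0.63 and 1.11 CPM in stripped serum and at 36.3 and 22.4 CPM with androgen, a 33.3-fold rise (log2 5.06 ± 0.51, adjusted p = 0.000806, edgeR). Both androgen libraries lay above every other library of the series, the next being RWPE on plastic at 13.9 CPM. In VCaP control medium on ACP, SLC2A3 was at 4.13 and 5.83 CPM. SLC2A1 rose from 64.7 and 54.5 CPM to 114 and 92.5 CPM (log2 0.79 ± 0.19, adjusted p = 0.0208), again without overlap. SLC16A3 was at 39.7 CPM in one androgen library and 4.25 CPM in the other, with 5.66 and 4.71 CPM in stripped serum, and did not pass (adjusted p = 0.0802).

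Of the 15 glycolytic enzymes in VCaP, 7 rose, none fell past the threshold and 8 did not pass, and the log2 change was positive for 13 and negative for 2. LDHA, the lactate dehydrogenase subunit of glycolytic tissue, was at 378 and 382 CPM in stripped serum and 961 and 874 CPM with androgen (log2 1.27 ± 0.19, adjusted p = 0.00377, edgeR). The other 6 were HK1, ALDOA, GAPDH, PGK1, PGAM1 and ENO1, with log2 changes from 0.72 in HK1 to 1.12 in ALDOA. They include the aldolase and most steps below it. HK2 did not pass, at 46.2 and 46.6 CPM in stripped serum and 66.8 and 32.3 CPM with androgen (adjusted p = 0.879), and PFKM was at 237 and 216 CPM against 164 and 138 CPM (adjusted p = 0.0573). None of the 3 regulators PFKFB3, PFKFB4 and PDK1 passed.

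Among the targets outside glycolysis in VCaP, ANKRD37, an ankyrin repeat gene known as a direct HIF target, was at 2.05 and 1.31 CPM in stripped serum and 12.5 and 4.73 CPM with androgen (log2 2.36 ± 0.52, adjusted p = 0.0144, edgeR). P4HA2 rose from 4.19 and 3.61 CPM to 16.1 and 10.8 CPM (log2 1.78 ± 0.34, adjusted p = 0.00832). P4HA1, which also hydroxylates collagen, rose from 18.3 and 22.1 CPM to 75.8 and 40.7 CPM (log2 1.52 ± 0.30, adjusted p = 0.00984). The libraries of the groups did not overlap for these 3 genes, nor for VEGFA, NDRG1 and MXI1 below. The share of all genes without overlap was not counted. VEGFA was at 26.2 and 29.3 CPM without and 102 and 47.8 CPM with androgen (log2 1.43 ± 0.31, adjusted p = 0.0139). NDRG1 rose from 1631 and 1398 CPM to 4341 and 3025 CPM (log2 1.28 ± 0.29, adjusted p = 0.0166). MXI1, which antagonises MYC-type factors and is itself hypoxia-inducible, was the member that fell, from 90.5 and 50.2 CPM to 18.1 and 12.4 CPM (log2 -2.21 ± 0.36, adjusted p = 0.00495). HIF1A was at 82.4 and 131 CPM against 182 and 169 CPM and just missed the threshold (adjusted p = 0.053), as did EGLN1 (adjusted p = 0.0504).

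The VCaP count rested partly on single libraries. The number of calls over all genes also fell in each fit that left out 1 library, which left 1 library in a group. Without androgen replicate 1, which was the higher of the pair for most members, 6 of the 15 calls were left (SLC2A3, LDHA, ALDOA, ENO1, PGAM1 and MXI1), and without stripped replicate 1, 9 were left. SLC2A3, LDHA, ALDOA and MXI1 passed in every alternative tried. Other markers moved with androgen in VCaP: the summed level of 8 liver genes was 320 and 379 CPM in stripped serum and 35.8 and 102 CPM with androgen, nearly all of it ALB and TTR, with FGA and FGG at 0 in both groups. The 5 fibroblast genes summed to 41.4 and 162 CPM against 7.57 and 8.32 CPM. Most of that fall was LUM, at a mean of 94.6 CPM in stripped serum and 2.69 CPM with androgen. COL1A1 averaged 4.75 and 4.81 CPM, COL1A2 0 and 0.13 CPM, DCN 1.09 and 0.02 CPM and PDGFRB 1.34 and 0.30 CPM. The 4 endothelial genes summed to 0.68 and 1.52 CPM against 12.2 and 12.2 CPM, with PECAM1 at a mean of 0.33 CPM in stripped serum and 8.34 CPM with androgen. In the same groups the RNAs without a poly(A) tail RPPH1 and RMRP summed to 22.1 and 26.4 CPM against 179 and 129 CPM. Their part in the result was not tested.

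**Figure D3:**
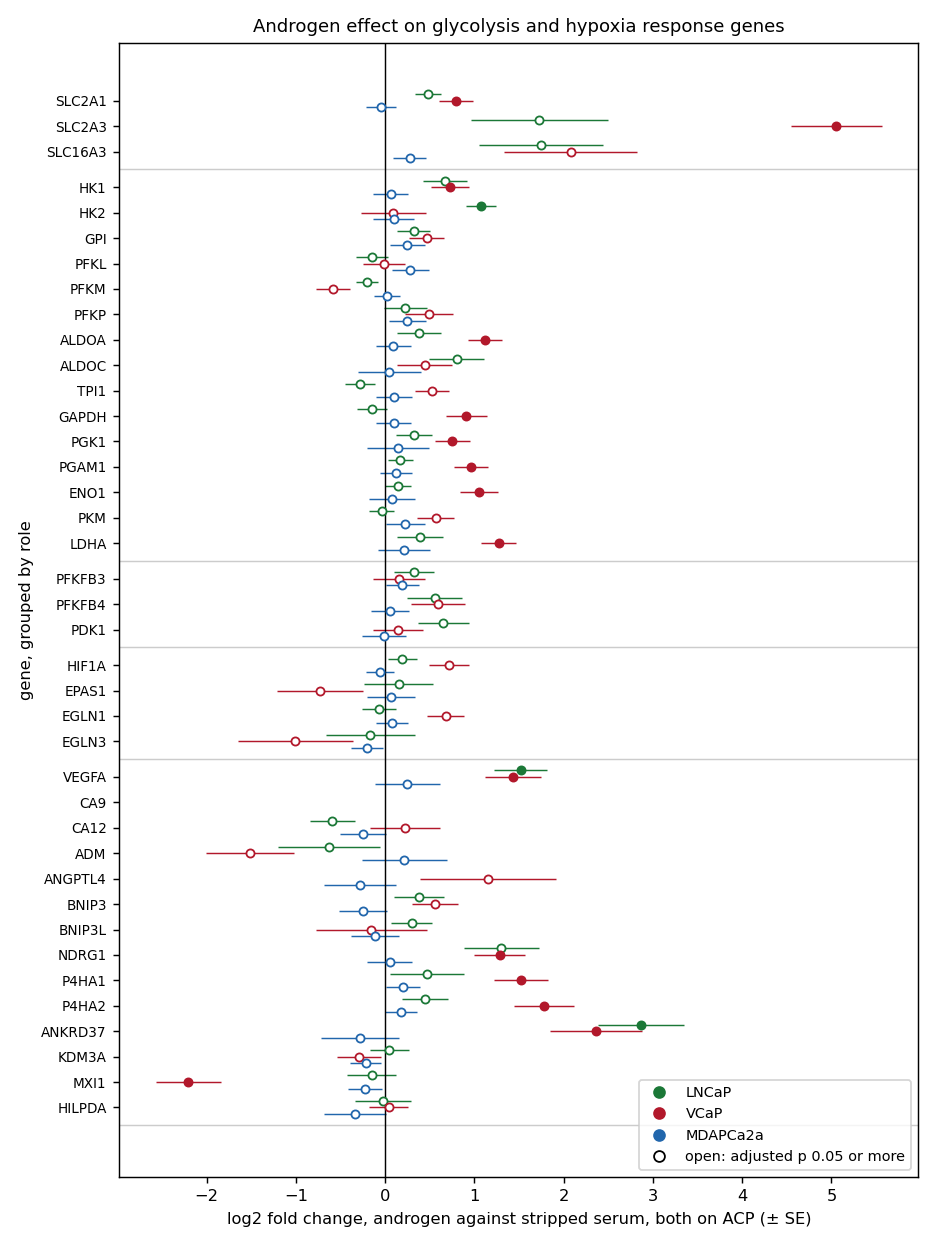
Log2 fold change of each member with androgen against stripped serum on ACP, with its standard error, in LNCaP, VCaP and MDAPCa2a (2 libraries per group); filled points passed an adjusted p of 0.05. VCaP has 15 filled points, LNCaP 3 and MDAPCa2a none, and members not tested in a line have no point.

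In LNCaP, androgen on ACP raised 3 of 37 members tested and lowered none, against 7.73% of all 14656 genes called (3.77% rose, 3.96% fell). ANKRD37 was at 1.62 and 2.98 CPM in stripped serum and 17.4 and 16.4 CPM with androgen (log2 2.86 ± 0.48, adjusted p = 0.0059, edgeR). VEGFA rose from 90.6 and 80.9 CPM to 276 and 219 CPM (log2 1.52 ± 0.30, adjusted p = 0.0138). HK2 rose from 24.9 and 21.6 CPM to 48.1 and 50.9 CPM (log2 1.07 ± 0.16, adjusted p = 0.00367). The groups of these 3 genes did not overlap, and the share of all genes without overlap was not counted. SLC2A3, which rose most in VCaP, was at 0.03 and 0.11 CPM in stripped serum and 0.24 and 0.23 CPM with androgen in LNCaP and did not pass (adjusted p = 0.202). The median log2 change was 0.32 over the members and -0.01 over all genes, and NDRG1, at 86.1 and 96.6 CPM against 169 and 287 CPM, did not pass (adjusted p = 0.0834). Of the 3 calls, HK2 included, 0 held in every fit that left out 1 library. Each such fit left 1 library in a group. RPPH1 and RMRP together were at 40.9 and 9.25 CPM in stripped serum and 148 and 69.6 CPM with androgen, and their part was not tested.

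In MDAPCa2a none of 37 members tested passed with androgen on ACP by edgeR, none had an unadjusted p under 0.05, and DESeq2 also called 0. The background was 0% of 13626 genes. All 15 enzymes had a small positive log2 change, with a median of 0.10 against -0.01 over all genes. LDHA was at 646 and 508 CPM in stripped serum and 897 and 479 CPM with androgen. VEGFA was at 191 and 388 CPM and at 295 and 406 CPM, and HK2 at 155 and 232 CPM and at 183 and 240 CPM, so both overlapped. KLK3, the androgen-induced gene of prostate-specific antigen, averaged 9351 CPM in stripped serum and 7029 CPM with androgen in this line, against 1669 and 3401 CPM in LNCaP and 78.1 and 2143 CPM in VCaP.

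The androgen effects of the lines were compared directly, in a fit of all libraries. In VCaP minus LNCaP, 7 of 39 members differed, against 10.9% of all 17323 genes (5.39% with the larger and 5.51% with the lower change in VCaP). The larger change was in VCaP for 6 of them: SLC2A3 (log2 difference 3.32 ± 1.07, adjusted p = 0.0488, edgeR), P4HA2 (1.32 ± 0.36, adjusted p = 0.0182), GAPDH (1.04 ± 0.28, adjusted p = 0.016), ENO1 (0.89 ± 0.29), TPI1 (0.79 ± 0.26) and PGAM1 (0.77 ± 0.21). MXI1 had the lower change in VCaP (-2.08 ± 0.42, adjusted p = 0.0028) and was the only member called in every alternative. In LNCaP, MXI1 was at 49.0 and 56.7 CPM in stripped serum and 33.5 and 63.1 CPM with androgen. Leaving out 1 library lowered the count of 7 to between 1 and 4 for 7 of the 8 libraries, LNCaP androgen replicate 2 being the exception. LDHA, VEGFA and ANKRD37 did not pass this test of the difference. For MDAPCa2a minus LNCaP, 1 of 39 members differed, against 1.12% of all genes (0.352% higher, 0.768% lower). It was ANKRD37 (log2 difference -3.11 ± 0.71, adjusted p = 0.0278), which was at 4.83 and 2.09 CPM in stripped serum and 3.73 and 2.17 CPM with androgen in MDAPCa2a, and the call was lost without any of 5 of the 8 libraries, which were LNCaP stripped replicate 1, LNCaP androgen replicate 1, MDAPCa2a stripped replicate 1 and both MDAPCa2a androgen replicates.

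**Figure D4:**
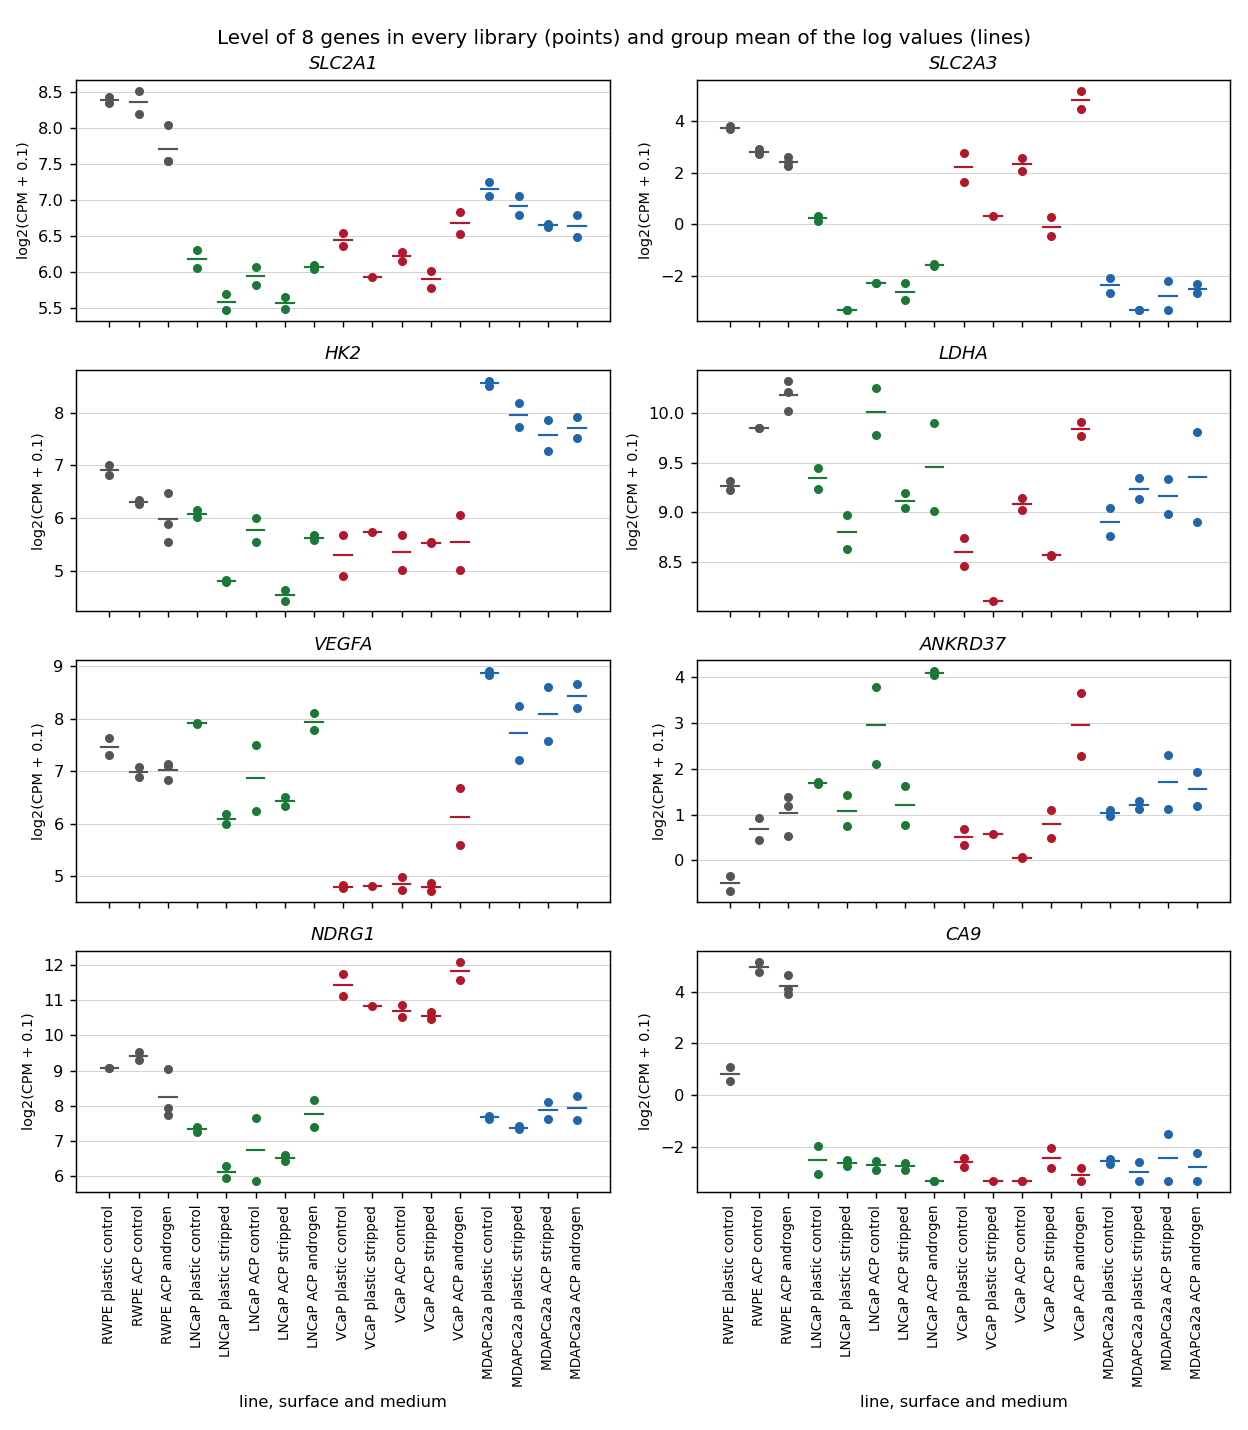
Level of 8 members in each of the 34 libraries, as log2(CPM + 0.1), by line, surface and medium; points are libraries and short lines the mean of the log values of a group. SLC2A3 is highest in VCaP on ACP with androgen, CA9 is at 0.254 CPM or less outside RWPE, and NDRG1 is highest in all VCaP groups.

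The 2 libraries of some ACP groups differed along these genes. In LNCaP on ACP in control medium, 18 of 35 members with a mean of at least 1 CPM lay more than 1.5-fold apart, all 18 higher in replicate 2, against 14.1% of 12423 genes. ANKRD37 was at 4.22 and 13.8 CPM there, NDRG1 at 58.1 and 200 CPM, VEGFA at 75.3 and 182 CPM and SLC16A3 at 0.75 and 5.48 CPM. In LNCaP on ACP with androgen, 12 of 35 were higher in replicate 2 and 2 in replicate 1, together 40.0% against 14.9% of genes, with LDHA at 519 and 957 CPM and P4HA1 at 49.5 and 116 CPM. VCaP on ACP with androgen had 11 of 36 higher in replicate 1 and 1 in replicate 2 (33.3% against 17.5%), and MDAPCa2a on ACP with androgen had 9 of 37 higher in replicate 1 (24.3% against 9.75%). In plastic control medium, LNCaP and MDAPCa2a had no member past that distance. RPPH1 and RMRP together were at 163 and 13.5 CPM in replicates 1 and 2 of LNCaP ACP control, 148 and 69.6 CPM in LNCaP androgen, 179 and 129 CPM in VCaP androgen and 15.3 and 20.0 CPM in MDAPCa2a androgen. The 4 basal markers summed to 0.79 and 13.4 CPM in the LNCaP ACP control pair, 0.90 and 12.1 CPM in the LNCaP androgen pair, 23.4 and 28.8 CPM in the VCaP androgen pair and 33.4 and 36.8 CPM in the MDAPCa2a androgen pair. The part of either in the difference between libraries was not tested.

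**Figure D5:**
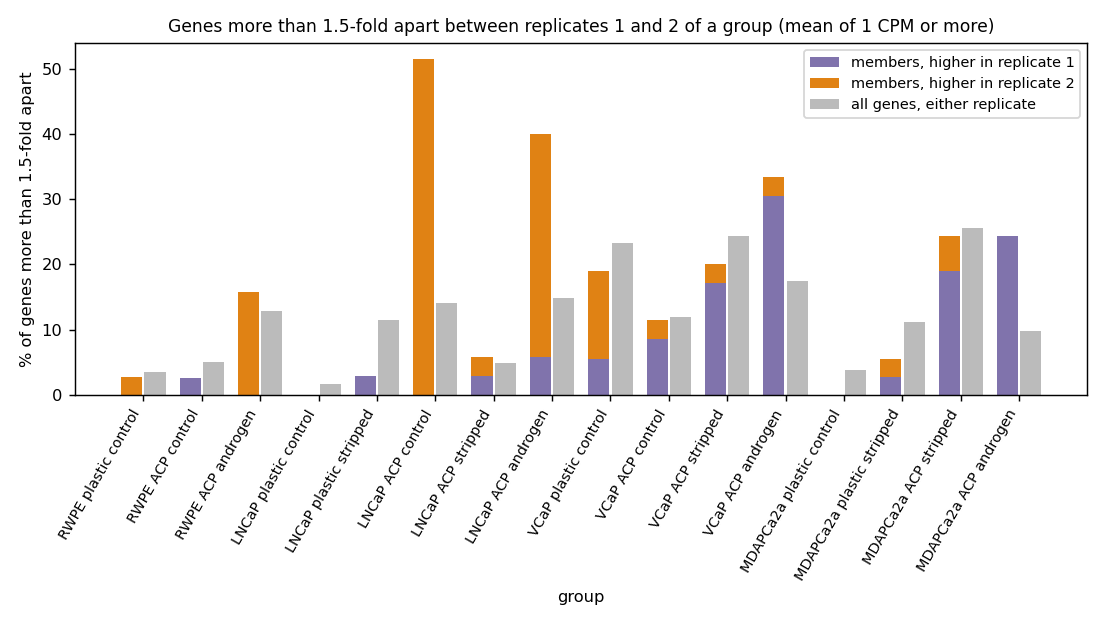
Share of genes more than 1.5-fold apart between replicates 1 and 2 of each group with 2 or more libraries, among genes with a mean of at least 1 CPM; coloured bars are members, split by which replicate was higher, and grey bars all genes. LNCaP on ACP in control medium reaches 51.4% of members and 14.1% of all genes.

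In stripped serum against control medium, LNCaP had the calls described here and VCaP and MDAPCa2a had none by edgeR. On plastic, 5 of 37 LNCaP members fell and none rose in stripped serum against control medium, where 9.45% of all genes were called (4.61% rose, 4.84% fell). SLC2A3 went from 1.16 and 0.99 CPM to 0 reads in both stripped libraries, from 100 reads to 0, which is at least 21.1-fold lower against a floor of 3 counts over the group. VEGFA was at 243 and 237 CPM in control medium and 72.4 and 63.6 CPM in stripped serum (log2 -1.77 ± 0.30, adjusted p = 0.00485, edgeR). HK2 fell from 70.8 and 65.0 CPM to 27.6 and 28.4 CPM (log2 -1.23 ± 0.16, adjusted p = 0.0013). PDK1, the kinase that shuts pyruvate dehydrogenase, fell from 63.8 and 65.3 CPM to 20.1 and 29.1 CPM (log2 -1.34 ± 0.29, adjusted p = 0.0151), and SLC2A1 by 0.55 on the log2 scale (adjusted p = 0.0359). No group of these 5 overlapped, and the share of all genes without overlap was not counted. The control libraries here are the plastic control libraries with transcripts of other tissues. The count was 3 without plastic control replicate 1 or without replicate 2, and 2 without plastic stripped replicate 1.

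The LNCaP control libraries on ACP carried less of those transcripts, with CD74 at a mean of 0.71 CPM against 10.3 CPM in plastic control. On ACP, 4 of 37 LNCaP members were called with stripping, against 5.37% of all genes (3.28% rose, 2.09% fell). HK2 was at 46.6 and 63.8 CPM in control medium and 24.9 and 21.6 CPM in stripped serum (log2 -1.26 ± 0.17, adjusted p = 0.00167, edgeR), and this call held in every alternative. PDK1 fell from 60.3 and 89.0 CPM to 26.7 and 24.9 CPM (log2 -1.55 ± 0.29, adjusted p = 0.0107). ANKRD37 was at 4.22 and 13.8 CPM in control medium and 1.62 and 2.98 CPM in stripped serum (log2 -1.98 ± 0.47, adjusted p = 0.0348). Without ACP control replicate 2, the higher of the pair, the ANKRD37 change was -0.92 and its call was lost (adjusted p = 0.281, range over alternatives 3.51e-07 to 0.281). EGLN1, the main hydroxylase that marks HIF proteins, rose from 84.2 and 117 CPM to 236 and 206 CPM (log2 1.12 ± 0.19, adjusted p = 0.00805). With androgen added to stripped medium on ACP, EGLN1 stayed at 230 and 196 CPM. Whether its rise came from the loss of steroids was not tested. The count was 7 without ACP control replicate 1, 1 without stripped replicate 1 and 2 without stripped replicate 2.

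In VCaP no member was called with stripping on ACP by edgeR, where 0.82% of all genes were (0.134% rose, 0.685% fell), though 9 of 38 had an unadjusted p under 0.05 and DESeq2 called 2. LDHA was at 522 and 567 CPM in control medium and 378 and 382 CPM in stripped serum, and SLC2A3 at 4.13 and 5.83 CPM against 0.63 and 1.11 CPM. These values did not overlap, but did not pass. On plastic, where VCaP had 1 stripped library, none of 38 was called by edgeR (0.89% of all genes, 0.474% rising and 0.416% falling), 11 had an unadjusted p under 0.05 and DESeq2 called 4. In that library MXI1 was at 90.3 CPM, against 37.3 and 20.4 CPM in plastic control. MDAPCa2a had no member called on plastic by edgeR or by DESeq2 (1.58% of all genes, 0.881% rising and 0.697% falling), with 5 of 37 at an unadjusted p under 0.05. The stripping effect on ACP differed between VCaP and LNCaP for 1 of 39 members, EGLN1 (log2 difference -1.45 ± 0.27, adjusted p = 0.0104, edgeR), against 0.595% of all genes (0.214% higher, 0.381% lower). In VCaP, EGLN1 was at 54.2 and 41.2 CPM in control medium and 41.9 and 34.7 CPM in stripped serum. This call was lost without LNCaP ACP stripped replicate 1, LNCaP ACP control replicate 1 or VCaP ACP control replicate 1.

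The mineral surface was compared with plastic in stripped serum and in control medium, and in LNCaP the share of members called was near that of all genes in both. In stripped serum, where no plastic control library enters, ACP against plastic gave 2 calls of 37 in LNCaP (6.12% of all genes, 4.32% rising and 1.8% falling). EGLN1 was at 87.1 and 105 CPM on plastic and 236 and 206 CPM on ACP (log2 1.23 ± 0.19, adjusted p = 0.00646, edgeR), and PFKM fell from 278 and 235 CPM to 171 and 170 CPM (log2 -0.56 ± 0.12, adjusted p = 0.028). Both calls were lost without plastic stripped replicate 1 or without ACP stripped replicate 1, and the PFKM call also without ACP stripped replicate 2. In VCaP, where plastic had 1 stripped library that is assumed to vary like the other groups, none of 38 was called by edgeR or had an unadjusted p under 0.05 (0% of all genes called), and DESeq2 called none. In MDAPCa2a none of 37 was called by edgeR (0.00734% of all genes), 6 had an unadjusted p under 0.05 and DESeq2 called 1. The surface effects of MDAPCa2a and LNCaP in stripped serum differed for no member by edgeR (0.358% of all genes, 0.0404% higher and 0.317% lower), with 3 of 39 at an unadjusted p under 0.05, and DESeq2 called 1.

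In control medium the ACP comparison uses the plastic control libraries. RWPE had 4 of 39 members called, against 4.16% of all genes (2.83% rose, 1.33% fell). CA9 was at 1.38 and 2.05 CPM on plastic and 35.4 and 27.1 CPM on ACP, an 18.5-fold rise (log2 4.21 ± 0.32, adjusted p = 0.000216, edgeR), and this call held in every alternative. CA12 rose from 5.17 and 8.37 CPM to 19.3 and 19.6 CPM (log2 1.55 ± 0.28, adjusted p = 0.0175). P4HA1 rose from 29.5 and 28.7 CPM to 48.2 and 50.9 CPM (log2 0.79 ± 0.16, adjusted p = 0.0284), and SLC2A3 fell from 13.9 and 12.9 CPM to 6.54 and 7.45 CPM (log2 -0.91 ± 0.22, adjusted p = 0.048). None of these groups overlapped, and the share of all genes without overlap was not counted. EGLN3 was at 0.56 and 0.58 CPM on plastic and 3.71 and 3.31 CPM on ACP and did not pass. Without any 1 of the 4 libraries 1 or 2 calls were left, while DESeq2 called 10 and the fit with the replicate block 14. Over all genes, DESeq2 called 1401 and the replicate block 2661, against 595 in the main fit. The 8 liver genes summed to 16.1 and 14.7 CPM on plastic and 0.14 and 0.58 CPM on ACP, while RPPH1 and RMRP summed to 0.40 and 0.94 CPM on plastic and 203 and 188 CPM on ACP. Their part was not tested.

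LNCaP in control medium had 4 of 37 members called on ACP against plastic (12.6% of all genes, 6.74% rising and 5.85% falling). ANKRD37 was at 3.08 and 3.20 CPM on plastic and 4.22 and 13.8 CPM on ACP (log2 1.61 ± 0.45, adjusted p = 0.0416, edgeR), and SLC2A3 at 1.16 and 0.99 CPM against 0.11 and 0.11 CPM (log2 -3.17 ± 0.61, adjusted p = 0.0145). PGAM1 (log2 0.67 ± 0.14) and TPI1 (log2 0.59 ± 0.17) rose. None of these 4 calls held in every fit that left out 1 library. Each such fit left 1 library in a group, and the number of calls over all genes moved with it too. In VCaP none of 38 was called by edgeR (0.0448% of all genes, 0.0256% rising and 0.0192% falling), 4 had an unadjusted p under 0.05 and DESeq2 called 0.

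RWPE on ACP in androgen medium was compared with RWPE on ACP in control medium. The protocol gives stripped serum for androgen medium and a serum-free control medium for RWPE, so serum and steroid cannot be told apart. Of 39 members 4 rose and 5 fell, against 19.1% of all genes called (11% rose, 8.05% fell). PDK1 was at 15.9 and 17.3 CPM in control medium and 39.2, 31.1 and 24.9 CPM with androgen (log2 0.95 ± 0.21, adjusted p = 0.0197, edgeR). HILPDA, a lipid droplet gene, rose from 17.8 and 17.1 CPM to 41.1, 34.9 and 22.0 CPM (log2 0.92 ± 0.25, adjusted p = 0.0302), and BNIP3L and P4HA1 rose by 0.60 and 0.54. CA12 fell from 19.3 and 19.6 CPM to 7.45, 11.8 and 9.29 CPM (log2 -1.01 ± 0.25, adjusted p = 0.0242). NDRG1 was at 742 and 634 CPM against 247, 524 and 213 CPM (log2 -1.04 ± 0.33, adjusted p = 0.0482). PFKFB3, PFKL and P4HA2 fell by 0.63, 0.62 and 0.57 on the log2 scale. None of these calls held in every fit that left out 1 library. Without androgen replicate 1, 1 call was left, and without androgen replicate 3 there were 19 in all. Over all genes, 1066 were called without androgen replicate 1 and 6102 without androgen replicate 3, against 2730 in the main fit. Without either control library, the control group held 1 library, and calls were lost over all genes as well as among the members. The androgen libraries themselves differed, since the 4 basal markers summed to 3398, 11102 and 3892 CPM in replicates 1, 2 and 3, against 15937 and 12742 CPM in control medium. RPPH1 and RMRP summed to 327, 8.40 and 6.86 CPM in the same androgen libraries and 203 and 188 CPM in control medium, and the part of either in the result was not tested.

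Lists of related genes outside the 39 were counted in the same fits. With androgen on ACP, 8 of 43 other glucose, pyruvate and lactate genes rose in LNCaP and none fell, beside 3.77% of all genes that rose and 3.96% that fell, led by PFKFB2 (log2 1.91 ± 0.34, adjusted p = 0.00869), a further enzyme of the PFKFB family. In VCaP, where 8.67% of all genes rose and 8.8% fell, 5 of 44 rose and 4 fell, from PFKFB2 (log2 2.41 ± 0.29) to LDHD, the lactate dehydrogenase of D-lactate (log2 -2.95 ± 0.62). Other hypoxia-inducible genes did not move one way in VCaP either: 6 of 41 rose, led by LOX, the collagen cross-linking oxidase (log2 3.86 ± 0.42), and 6 fell, led by the circadian repressor BHLHE41 (log2 -2.24 ± 0.34). The median over those 41 genes was 0.10 and over the 44 glucose genes 0.14, against 0.58 over the members. Of 17 other oxygen-sensing genes 2 rose and 2 fell in VCaP, and none was called in LNCaP by edgeR, where 2 had an unadjusted p under 0.05. In MDAPCa2a none of the 3 lists had a call by edgeR, and 1 gene of the 3 lists together had an unadjusted p under 0.05. With stripping on ACP in LNCaP, 4 of 40 other hypoxia-inducible genes rose and 6 fell, beside 3.28% and 2.09% of all genes, from INSIG2, a regulator of sterol synthesis (log2 0.99 ± 0.23), to KLF7 (log2 -2.41 ± 0.56).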

How the data were processed

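The deposited table gives the authors' raw read counts, as deposited, for 26336 gene symbols in 34 libraries. In all libraries 4335 of the symbols had 0 reads. The submitters' processing notes name STAR, HTSeq and hg19, without versions, and per the labels' protocols libraries were poly(A)-selected. The files' build differs from that of the reference used here, so positions are given only for RefSeq promoters (GRCh38.p14). Exon lengths for levels per kilobase are from GENCODE on GRCh38; how strand was treated in counting was not stated in the labels or notes.

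Genes were tested with edgeR 4.0.16 in R 4.3.3 by its quasi-likelihood test with TMM factors, keeping genes that filterByExpr passed at a count of 10 and calling those with a Benjamini-Hochberg adjusted p below 0.05 over all genes tested, in a fit of each line for comparisons inside it and in a fit of all 34 libraries for lines and differences of effects. Residual degrees of freedom were 17 in the fit of all lines and 4 or 5 within lines, and biological variation was 16.8% to 24.9% within lines. CPM use TMM sizes over all lines. A standard error is the log2 change divided by the square root of F. The limit for 0 reads is 3 counts over a group, and ratios with 1 to 3 counts have an exact 95% interval.

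The steps were tested on simulated data. Alternatives were RLE size factors, no count filter, DESeq2 1.42.0, a replicate block and leaving out each library. The 39 members and all gene lists were chosen with earlier results of these data known. Every called member may be named, with statistics for the 5 largest rises and falls of a comparison and for 12 genes described throughout. Of each related list the largest rise and fall are named. Replicate numbers were checked for pairing by the correlation of replicate 1 minus 2 between groups of a line, which ran from -0.234 to 0.207, so the numbers were not taken to pair libraries.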

Additional observations from a re-analysis of the deposited data

Results flagged for a closer look

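Effects of the same treatment differed between lines by a direct test of the difference for 9 results. The androgen effect on ACP was larger in VCaP than in LNCaP for SLC2A3 by 3.32 on the log2 scale, for P4HA2 by 1.32, for GAPDH by 1.04, for ENO1 by 0.89, for TPI1 by 0.79 and for PGAM1 by 0.77. MXI1 differed by -2.08 in the same comparison. ANKRD37 differed by -3.11 between the androgen effects of MDAPCa2a and LNCaP. EGLN1 differed by -1.45 between the stripping effects of VCaP and LNCaP on ACP. Of these, MXI1 was called in every alternative run, and each of the other 8 was lost without at least 1 library.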

How the results depend on the processing

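Of 1856 alternative values for the 217 member results past the threshold, 1620 kept direction and call, 236 kept direction and lost the call, and none reversed. Without a filter on low counts, calls went from 3 to 9 for androgen in LNCaP, 2 to 5 for the surface in stripped LNCaP, 0 to 1 in stripped MDAPCa2a, 4 to 10 and 0 to 2 for stripping on ACP in LNCaP and VCaP, 4 to 11 for the surface in LNCaP control medium, 5 to 12, 0 to 4 and 0 to 1 for stripping on plastic in LNCaP, VCaP and MDAPCa2a, and 1 to 5 for the stripping difference. With DESeq2 the counts were 5 and 1 for the surface in stripped LNCaP and MDAPCa2a and 1 for their difference, 2 for stripping on ACP in VCaP, 10 and 7 for the surface in control medium in RWPE and LNCaP, 9 and 4 for stripping on plastic in LNCaP and VCaP, 14 for RWPE androgen medium and 5 for the stripping difference. RLE factors gave 1 for stripping on ACP in VCaP. With the replicate block, counts were 7 and 2 for stripping on ACP in LNCaP and VCaP, 14 for the RWPE surface and 21 for RWPE androgen medium; the labels' numbers are not shown to pair libraries. Calls over all genes moved with these settings too. For RWPE androgen medium they were 2730 in the main fit, 3744 with DESeq2 and 5741 with the replicate block. For the RWPE surface they were 595, 1401 and 2661. Causes were not tested.

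Without 1 library, counts ranged from 1 to 5 and 6 to 12 for androgen in LNCaP and VCaP, 0 to 3 for the surface in stripped LNCaP, 1 to 7 for stripping on ACP in LNCaP, 1 to 2 and 0 to 7 for the surface in control medium in RWPE and LNCaP, 2 to 4 and 0 to 1 for stripping on plastic in LNCaP and VCaP (1 without VCaP plastic control replicate 2), and 0 to 19 for RWPE androgen medium. For differences of effects they ranged from 1 to 7 (androgen, VCaP minus LNCaP), 0 to 1 (androgen, MDAPCa2a minus LNCaP) and 0 to 2 (stripping, 2 without VCaP ACP stripped replicate 2). A group left with 1 library is assumed to vary like the others. Calls over all genes moved in these fits too. Groups of 1 to 3 libraries and members under about 1 CPM limit what could be called.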
